A study of Mus musculus with 8 samples.

Results

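The genes described here are 32 of the 54532 genes listed in the count table: Atf4, a stress-induced transcription factor, 11 genes of the amino acid response that ATF4 is known to control or that belong to its serine, one-carbon and amino acid transport branches, and 20 genes that encode the cytosolic aminoacyl-tRNA synthetases. The rule lists them by name and uses no measured value, although it was set with earlier results of these libraries known. Each of the 32 symbols matched 1 row of the table. The libraries came from mouse intestinal organoids, 4 labelled control and 4 labelled RANKL-treated. Organoids are epithelial structures grown from crypts, and RANKL is the TNF family ligand of the receptor RANK. No genotype, strain, sex, age, dose or duration is given in the labels of these libraries, and the labels do not say whether the 4 libraries of a group came from separate cultures or animals, so that p-values measure the spread between libraries, which may be technical. The comparison asks how the amino acid stress programme and the tRNA charging enzymes differed between RANKL-treated and control organoids.

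Cells that run short of amino acids, or that meet endoplasmic reticulum or mitochondrial stress, phosphorylate the initiation factor eIF2, which slows most translation and lets the Atf4 mRNA be translated. ATF4 protein then binds C/EBP-ATF response elements and induces enzymes that make asparagine and serine, mitochondrial folate enzymes, amino acid transporters and many of the cytosolic tRNA synthetases. Atf4 is thus controlled largely at translation, and its mRNA level is not a measure of its protein. The synthetases each join an amino acid to its tRNA, fall into the structural classes I and II, and several of them sit with scaffold proteins in a multi-synthetase complex.

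The response element core TGATGNAA was searched on both strands in the RefSeq promoter windows of the GRCm38.p6 build, each 300 bases long, from 250 bases before to 50 after a start site. A window was at hand for 24 of the 32 members, all but Slc7a5, Cars, Lars, Rars, Vars, Wars, Hars and Nars. The core was found in 9 of these 24 genes (37.5%), against 1219 of 27025 genes with a window (4.51%). They were Trib3, Chac1, Asns, Slc7a11, Iars, Yars, Aars, Gars and Tars. The stretches of 5 of them are shown because these genes later fall on both sides of the comparison or show no call. Letters run 5′ to 3′ on the gene's own strand, and capitals mark TGATGNAA or its reverse complement TTNCATCA.
Asns, chr6:7693214-7693243, minus strand: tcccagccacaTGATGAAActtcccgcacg
Aars, chr8:111033840-111033869, plus strand: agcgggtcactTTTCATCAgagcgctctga
Tars, chr15:11399655-11399684, minus strand: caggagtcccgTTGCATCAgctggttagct
Trib3, chr2:152344028-152344057, minus strand: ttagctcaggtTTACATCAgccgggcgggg
Slc7a11, chr3:50443628-50443704, minus strand: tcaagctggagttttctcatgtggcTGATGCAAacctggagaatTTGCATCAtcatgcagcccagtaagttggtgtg
The first base of the match lay 23 bases before the RefSeq start site in Asns and 15 before it in Tars. A letter match describes the sequence only and does not show that ATF4 was bound there.

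Libraries held between 583663 and 7807298 counts (median 3911808 for controls, 1613410 for RANKL), and the shallowest libraries were control replicate 4 and RANKL replicate 1. Levels are given as CPM, read counts scaled to a common library size, and the values of a group are listed in the order of the replicate numbers. The reads come from the 3′ ends of transcripts, so these values do not scale with transcript length. A count of 0 allows up to 3 counts, or 5.14 CPM in the shallowest library and 0.384 CPM in the deepest, and such limits cover counting error only. All 6 epithelial markers passed the filter on low counts; Epcam had means of 1030 ± 38.4 CPM without and 1110 ± 45.0 CPM with RANKL (SD, n = 4 each) and was not called, while Cldn7 (-0.53 on the log2 scale, adjusted p = 0.00021, edgeR) and Krt19 (-0.30, adjusted p = 0.023) were lower. None of the 11 fibroblast, endothelial and leukocyte markers passed that filter, with Cdh5, Kdr and Cd3e among those at 0 in every library. Some marker mRNAs of epithelial cell types differed between the groups. Of 4 M cell markers, 3 were higher in RANKL libraries and Gp2 was at 0 throughout, with a summed level of 7.86 to 12.04 CPM in control and 1611 to 1871 CPM in RANKL libraries. Of 5 stem cell markers, Lgr5 (-2.22), Axin2 (-0.90) and Smoc2 (-0.76) were lower on the log2 scale, Ascl2 was higher (means of 17.6 and 37.3 CPM), and Olfm4, which makes up most of their summed level (1216 to 1629 CPM in control and 1034 to 1235 CPM in RANKL libraries), was not called. Of 5 Paneth markers, Defa17 was lower (-0.70) and the other 4 were not called, with a list median of 0.12. Of 5 enterocyte markers, Apoa1 was higher (0.33) and the other 4 were not called, with a list median of -0.1. No goblet, enteroendocrine or tuft marker was called. The part of these differences in the results below was not tested, and in bulk RNA fewer cells of a type and less RNA per cell cannot be told apart.

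RANKL libraries held less mRNA of Atf4, Asns, Psat1 and Shmt2, and the tRNA synthetases split, with 6 higher and 3 lower. In the edgeR quasi-likelihood test across all genes, with Benjamini-Hochberg adjustment and a threshold of 0.05, 31 of the 32 members were tested, 6 were higher, 7 were lower and 18 did not pass the threshold. The higher members were Lars, Vars, Hars, Kars, Aars and Tars, which are all synthetases. The lower members were Asns, Shmt2, Psat1 and Atf4, together with the synthetases Farsb, Eprs and Sars. Members called higher were 19.4% of those tested against 13.6% of all 9971 genes tested, and members called lower were 22.6% against 12.4%. A mean of at least 25 CPM, a level chosen after the values were seen, was reached by 28 members, including all 13 called ones. Of the 5985 genes tested at that level, 15.2% were called higher and 15.9% lower, a closer background for the lower side. Groups of 4 did not overlap, in the CPM values, for 5 members on the higher side (13.1% of all genes) and 7 on the lower side (11.5% of all genes). The median log2 fold change of the members was -0.08, against 0.0 for all genes, and the members ranged from -0.67 to 0.65. The lower side rests in part on RANKL replicate 4, without which 3 members and 0 synthetases were called lower and 4 members higher; without control replicate 1 there were 9 lower and 4 higher. Without both of the shallowest libraries, 5 members were lower and 4 higher.

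**Figure D1:**
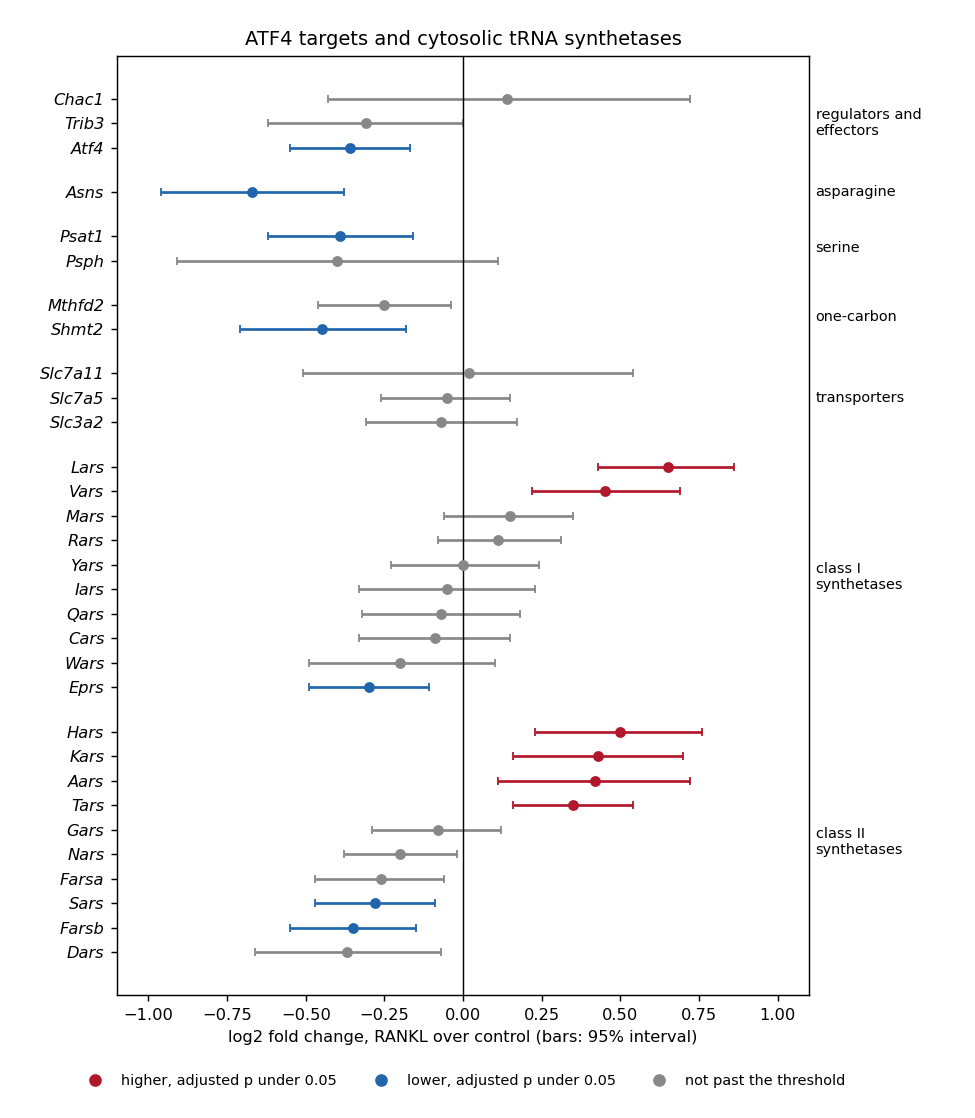
Log2 fold change of RANKL over control for the 31 tested members, grouped by role, with 95% intervals as bars (edgeR). Red points are the 6 members called higher, all of them synthetases; blue points are the 7 called lower; grey points did not pass an adjusted p of 0.05.

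Summed over the 32 members, the level was 6097 ± 183 CPM in control and 5502 ± 156 CPM in RANKL libraries (SD, n = 4 each). The members took 0.605%, 0.591%, 0.608% and 0.613% of all counts in the controls and 0.540%, 0.564%, 0.566% and 0.550% after RANKL. No RANKL share reached the lowest control share. Most of this difference lay in the members that are not synthetases, whose sum was 2014 ± 70.2 CPM in control and 1620 ± 106 CPM in RANKL libraries, with Atf4 the largest part of it. The 20 synthetases summed to 4084 ± 138 CPM in control and 3881 ± 58.0 CPM in RANKL libraries, and the groups overlapped, since RANKL replicate 3 (3960 CPM) was above control replicate 2 (3946 CPM). These sums are descriptions, since the members were chosen with results of these libraries known.

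**Figure D2:**
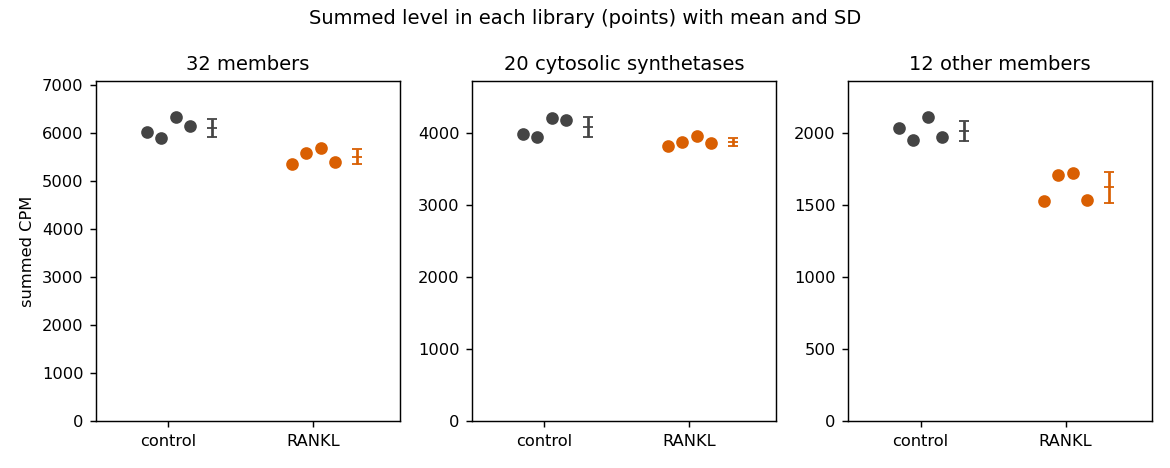
Summed CPM of all 32 members, of the 20 cytosolic synthetases and of the 12 other members, with 1 point per library and the mean ± SD beside the points. The RANKL points lie below all control points for the 32 members and for the 12 others, and overlap them for the synthetases; the other members go from 2014 to 1620 CPM on average and the synthetases from 4084 to 3881 CPM.

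Atf4 (ENSMUSG00000042406, chr15:80255184-80257541, plus strand, GRCm38) encodes the transcription factor at the centre of the response. Its level was 1260, 1120, 1290 and 1150 CPM in the controls and 914, 981, 1040 and 820 CPM after RANKL. All RANKL libraries were below all control libraries. Atf4 mRNA fell by 0.36 on the log2 scale (SE 0.10, adjusted p = 0.0051, edgeR), and the call held in all 17 alternative fits, with adjusted p between 0.00075 and 0.038. Trib3, a pseudokinase that is an ATF4 target and feeds back on it, ranged from 54.5 to 73.8 CPM in control and from 38.7 to 68.7 CPM in RANKL libraries, a log2 fold change of -0.31 (SE 0.16, adjusted p = 0.16). Among the RANKL libraries Trib3 was highest in replicate 4, and without that library its log2 fold change was -0.56. Its adjusted p ran from 0.015 to 0.45 over the alternative fits and passed the threshold in 2 of 17. Chac1, an enzyme that breaks down glutathione and a sensitive ATF4 target, was low, with 167 counts in all control and 72 in all RANKL libraries. Chac1 differed more between libraries than between groups, from 9.04 to 25.8 CPM in control and from 8.87 to 18.7 CPM in RANKL libraries, and the highest value of each group was in replicate 4. Its fitted log2 fold change was 0.14 (SE 0.29, adjusted p = 0.76), although its mean CPM was lower in RANKL libraries, 11.9 against 14.0, and its sign changed with the library left out.

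Asns (ENSMUSG00000029752, chr6:7675169-7693254, minus strand) encodes asparagine synthetase and carries the response element core shown above. Its level was 48.3, 55.5, 51.4 and 58.5 CPM in the controls and 29.1, 35.8, 29.7 and 35.7 CPM after RANKL. The groups were separated by a wide gap, and no member fell further. Asns fell by 0.67 on the log2 scale (SE 0.15, adjusted p = 0.00097, edgeR), with adjusted p between 0.00029 and 0.009 over 17 alternative fits.

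The serine branch makes serine from a glycolytic intermediate in steps catalysed by PHGDH, PSAT1 and PSPH. Psat1, the aminotransferase, was at 90.0, 93.4, 88.4 and 87.7 CPM in the controls and at 64.6, 73.0, 70.9 and 64.8 CPM after RANKL. The control values lay close together and above every RANKL value. Psat1 fell by 0.39 on the log2 scale (SE 0.12, adjusted p = 0.012, edgeR). Without RANKL replicate 4 its log2 fold change was -0.36 and the call was lost, and adjusted p ran from 0.009 to 0.076 over 17 alternative fits. Phgdh, the first enzyme, was below the filter on low counts, with 37 counts in all control and 17 in all RANKL libraries, or 2.42 ± 1.03 and 2.81 ± 1.40 CPM, and was not tested. Psph, the phosphatase of the last step, had a log2 fold change of -0.40 on few counts (SE 0.26, adjusted p = 0.28), with overlapping ranges of 10.4 to 17.2 and 6.59 to 13.6 CPM.

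In mitochondria, SHMT2 takes a one-carbon unit from serine and MTHFD2 oxidises it. Shmt2 was at 78.0, 78.1, 81.3 and 65.3 CPM in the controls and at 46.8, 68.1, 61.0 and 47.8 CPM after RANKL. The groups overlapped, since control replicate 4 was below RANKL replicate 2. Shmt2 fell by 0.45 on the log2 scale (SE 0.13, adjusted p = 0.013, edgeR); without RANKL replicate 4 the value was -0.36 and the call was lost, and adjusted p ran from 0.0071 to 0.18 over 17 alternative fits. Mthfd2 ranged from 167 to 196 CPM in control and from 132 to 169 CPM in RANKL libraries, a log2 fold change of -0.25 that missed the threshold (SE 0.11, adjusted p = 0.088).

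The amino acid transporters among the members showed no call. Of the large neutral amino acid carrier, the light chain LAT1 (Slc7a5) had a log2 fold change of -0.05 (95% interval -0.26 to 0.15). The heavy chain 4F2hc (Slc3a2) had -0.07 (-0.31 to 0.17), an interval that includes a fall as large as that of Sars (-0.28), which was called. Slc7a11, the light chain of the cystine transporter and a holder of 2 response element cores, averaged 10.5 ± 2.48 CPM without and 9.88 ± 2.65 CPM with RANKL (SD, n = 4 each), and its interval of -0.51 to 0.54 leaves room for changes as large as most of those called here. The log2 ratio of Slc7a5 to Slc3a2 was 1.30 ± 0.19 in control and 1.36 ± 0.06 in RANKL libraries (n = 4 each, exact two-sided permutation p = 0.657, adjusted p = 0.876 over 4 ratios compared), a difference of 0.05 with an SE of 0.10.

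Among the 20 synthetases the higher calls outnumbered the lower ones, by 6 (30%) to 3 (15%), and the median log2 fold change was -0.06. All 20 had a mean of at least 25 CPM, a level chosen after the values were seen; among the 5985 genes tested at that level, 15.2% were called higher and 15.9% lower, so that the share of synthetases called lower was near the background of genes at that level. The higher calls numbered between 4 and 6 over all alternatives, and the lower ones between 0 and 5. Without control replicate 4, or without RANKL replicate 1, 1 synthetase was called lower, without RANKL replicate 4 none was by edgeR, and without control replicate 1 it was 5.

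Lars (ENSMUSG00000024493, chr18:42202298-42262194, minus strand), the leucyl-tRNA synthetase, which is also described as a leucine sensor for mTORC1, rose most among the members. Its level was 137, 143, 125 and 177 CPM in the controls and 221, 225, 202 and 238 CPM after RANKL. The lowest RANKL library was above the highest control library. Lars rose by 0.65 on the log2 scale (SE 0.11, adjusted p = 3.3e-05, edgeR), and in 17 alternative fits adjusted p was at most 0.0028. Vars (ENSMUSG00000007029, chr17:35000987-35016322, plus strand), for valine, was at 92.0, 83.7, 71.7 and 84.3 CPM in the controls and at 88.8, 121, 116 and 120 CPM after RANKL. RANKL replicate 1 stood apart from the other RANKL libraries and below control replicate 1. Vars rose by 0.45 on the log2 scale (SE 0.12, adjusted p = 0.0052, edgeR), and adjusted p was at most 0.027 in 17 alternative fits. Eprs carries both the glutamyl and the prolyl enzyme in a single protein and was counted here with class I only. It was the lower call among the genes so counted, at 449, 423, 456 and 504 CPM in the controls and 331, 393, 397 and 352 CPM after RANKL. The groups did not overlap. Eprs fell by 0.30 on the log2 scale (SE 0.10, adjusted p = 0.022, edgeR). The call was lost without control replicate 4 (-0.26), RANKL replicate 1 (-0.26) or RANKL replicate 4 (-0.27), and adjusted p ran from 0.012 to 0.18 over 17 alternative fits.

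The other 7 class I enzymes, for cysteine (Cars), isoleucine (Iars), methionine (Mars), glutamine (Qars), arginine (Rars), tryptophan (Wars) and tyrosine (Yars), did not pass the threshold. Their log2 fold changes ran from -0.20 for Wars to 0.15 for Mars, and their control and RANKL ranges overlapped. Of the enzymes for the branched-chain amino acids, Lars and Vars were called higher and Iars was not. Iars ranged from 49.9 to 70 CPM in control and from 47.5 to 71.0 CPM in RANKL libraries, with a log2 fold change of -0.05 (95% interval -0.33 to 0.23). Differences between these genes were not tested, and the interval of Vars (0.22 to 0.69) meets that of Iars.

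In class II, Hars (ENSMUSG00000001380, chr18:36766528-36783205, minus strand), for histidine, was at 52.7, 43.2, 44.1 and 39.6 CPM in the controls and at 79.1, 60.6, 61.5 and 65.9 CPM after RANKL. All RANKL libraries were above all control libraries. Hars rose by 0.50 on the log2 scale (SE 0.14, adjusted p = 0.0066, edgeR), with adjusted p of at most 0.041 in 17 alternative fits. Its start overlaps that of Hars2, the mitochondrial histidine enzyme on the opposite strand, which had a log2 fold change of -0.10, and the counting was stranded. Tars (ENSMUSG00000022241, chr15:11382301-11399665, minus strand), for threonine, was at 274, 263, 233 and 272 CPM in the controls and at 342, 312, 319 and 349 CPM after RANKL. The groups were apart here too. Tars rose by 0.35 on the log2 scale (SE 0.10, adjusted p = 0.0079, edgeR), with adjusted p of at most 0.045 in 17 alternative fits.

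Kars, for lysine, was at 47.7, 61.2, 42.1 and 49.9 CPM in the controls and at 71.0, 64.7, 67.8 and 67.6 CPM after RANKL. The RANKL values lay close together and above all controls. Kars rose by 0.43 on the log2 scale (SE 0.14, adjusted p = 0.020, edgeR); the call was lost without control replicate 1 (0.39), control replicate 3 (0.34), RANKL replicate 3 (0.43) or RANKL replicate 4 (0.43), and adjusted p ran from 0.0044 to 0.14 over 17 alternative fits. Aars, for alanine, was at 27.4, 29.2, 27.1 and 25.8 CPM in the controls and at 35.5, 37.9, 34.9 and 39.0 CPM after RANKL. Its promoter window holds 2 response element cores, of which the stretch above shows 1. The spread within each group was small beside the gap between groups. Aars rose by 0.42 on the log2 scale (SE 0.15, adjusted p = 0.045, edgeR), but it was close to the threshold: each library left out in turn lost the call, with log2 fold changes of 0.38 to 0.45, and adjusted p ran from 0.029 to 0.19 over 17 alternative fits. Exons of Aars overlap Exosc6 on the same strand, which had 0 counts in every library, so reads in the shared stretch may be missing from both and the level of Aars is uncertain.

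Farsb, the beta subunit of the phenylalanine enzyme, was at 306, 290, 332 and 315 CPM in the controls and at 236, 278, 245 and 215 CPM after RANKL. No RANKL library reached a control value. Farsb fell by 0.35 on the log2 scale (SE 0.10, adjusted p = 0.010, edgeR); without RANKL replicate 4 the value was -0.29 and the call was lost, and adjusted p ran from 0.0071 to 0.061 over 17 alternative fits. Its partner Farsa, the alpha subunit, had a log2 fold change of -0.26 that missed the threshold (SE 0.10, adjusted p = 0.061); without control replicate 1 it was -0.33 and passed, and adjusted p ran from 0.020 to 0.25. The log2 ratio of Farsa to Farsb was 1.22 ± 0.15 in control and 1.32 ± 0.08 in RANKL libraries (n = 4 each, exact two-sided permutation p = 0.314, adjusted p = 0.629), a difference of 0.10 with an SE of 0.08.

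Sars, for serine, was at 284, 291, 335 and 315 CPM in the controls and at 262, 247, 265 and 235 CPM after RANKL. The groups did not overlap, although the gap was small. Sars fell by 0.28 on the log2 scale (SE 0.10, adjusted p = 0.035, edgeR), and the call was lost without control replicate 3 or 4 and without any of the 4 RANKL libraries, with values of -0.22 to -0.31 and adjusted p between 0.024 and 0.12 over 17 alternative fits. The other 3 class II enzymes did not pass the threshold. Dars, for aspartate, had a log2 fold change of -0.37 (SE 0.15, adjusted p = 0.071), which was -0.49 and passed without control replicate 1, over a range of adjusted p from 0.018 to 0.20. Nars, for asparagine, ranged from 628 to 693 CPM in control and from 517 to 607 CPM in RANKL libraries; its groups did not overlap, but its log2 fold change of -0.20 missed the threshold (SE 0.09, adjusted p = 0.11). Gars, for glycine, had -0.08 (95% interval -0.29 to 0.12).

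**Figure D3:**
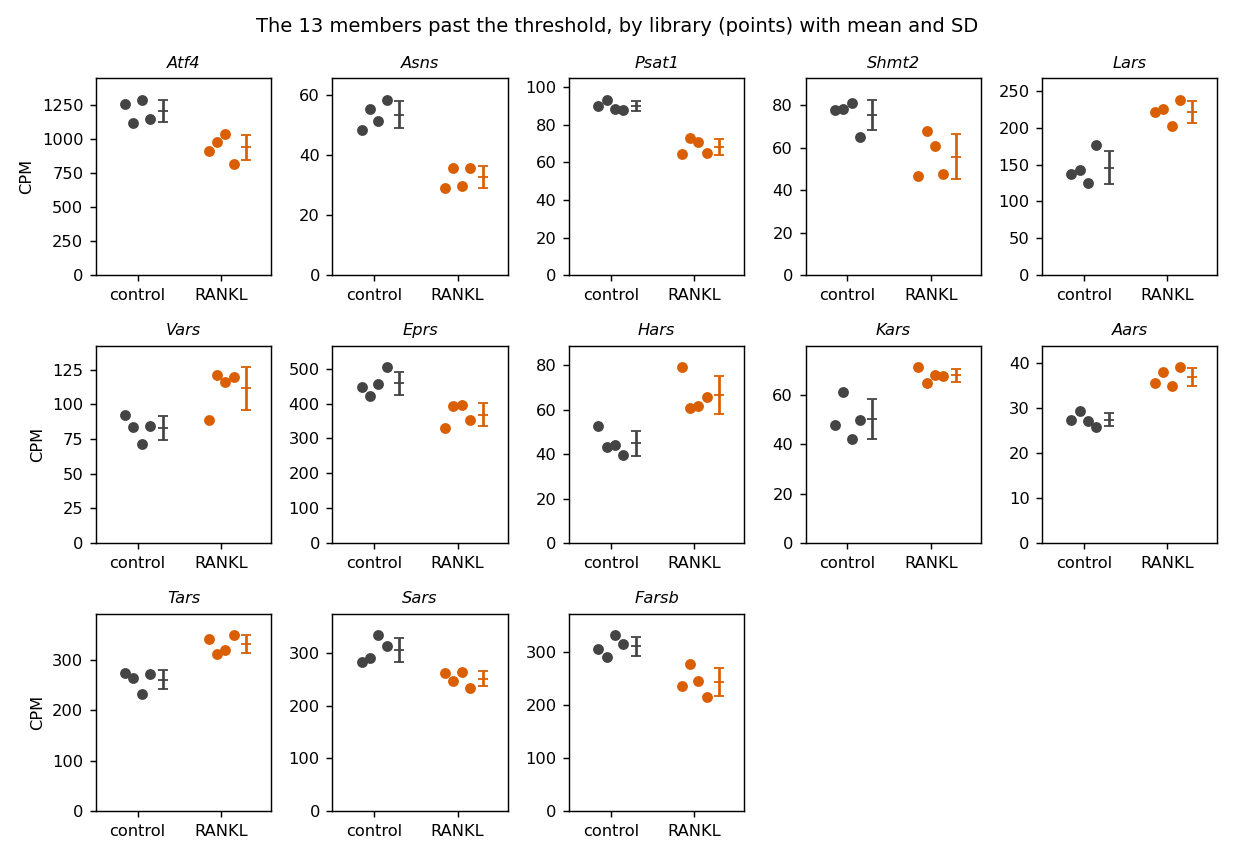
CPM of the 13 members past the threshold in each library, with the mean ± SD beside the points and every axis starting at 0. The groups are separate for 11 of them; they overlap for Shmt2, through control replicate 4, and for Vars, through RANKL replicate 1.

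For each of the 11 called members whose groups did not overlap, the exact two-sided permutation test on CPM gave p = 0.0286. This is the smallest value that 4 against 4 libraries allow, and groups without overlap always give it. It therefore restates the separation, adds nothing to the edgeR calls, and was not adjusted over the members. Nars, which had no call, also gave p = 0.0286 in the exact two-sided permutation test. For Shmt2 and Vars the exact two-sided permutation test on CPM gave p = 0.0571. Calls of both directions were found among the genes counted in each structural class, and inside and outside the complex. Of the 10 genes counted in class I, Eprs among them, 2 were higher (20%) and 1 was lower (10%). Of the 10 genes counted in class II, which include both subunits of the phenylalanine enzyme, 4 were higher (40%) and 2 were lower (20%). The 8 enzymes of the multi-synthetase complex held 2 higher (Lars, Kars, 25%) and 1 lower (Eprs, 12.5%). The 12 outside it held 4 higher (33.3%) and 2 lower (16.7%). Of all genes tested at a mean of at least 25 CPM, 15.2% were higher and 15.9% lower, and all these shares rest on few genes. The lower call in class I and in the complex was Eprs alone, and it was lost in 4 of 9 leave-out fits. The summed level of the complex members was 1271 ± 86.6 CPM in control and 1289 ± 11.8 CPM in RANKL libraries. The complex's 3 scaffold genes had no call, with log2 fold changes of -0.11 for Aimp1, -0.28 for Aimp2 and -0.25 for Eef1e1.

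The response element core was found in members of each direction. Of the members with a promoter window, 2 of 3 called higher (Aars and Tars) held it, 1 of 7 called lower (Asns) did, and so did 6 of 14 without a call. These numbers are too small for an order between the groups.

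Other genes of the pathway were taken from lists set by function, and their shares of calls are read beside the 13.6% higher and 12.4% lower of all genes tested. Upstream, 16 genes of eIF2, its kinases, its exchange factor eIF2B, its phosphatase subunits and GCN2 regulators were tested, 1 was higher (6.25%) and 2 were lower (12.5%), with a median log2 fold change of 0.0. These shares were below and near those of all genes. Ppp1r15a, which encodes the stress-induced phosphatase subunit GADD34, rose by 1.06 on the log2 scale from 5.92 ± 2.52 to 14.4 ± 7.02 CPM (n = 4 each, adjusted p = 0.012, edgeR). Its groups overlapped, and the call was lost without control replicate 1 (0.76) or RANKL replicate 1 (0.85), and with library size as a covariate (0.68), with adjusted p from 0.0043 to 0.27 over 16 alternative fits. Eif2ak4, which encodes the amino acid sensing kinase GCN2, fell by 0.70 on the log2 scale (SE 0.21, adjusted p = 0.013, edgeR), from 23.3 ± 2.23 to 15.1 ± 4.64 CPM (n = 4 each). Without RANKL replicate 2 the value was -0.54 and the call was lost, and adjusted p ran from 0.0083 to 0.085 over 17 alternative fits. Eif2b5, the catalytic subunit of eIF2B, fell by 0.46 on the log2 scale (SE 0.11, adjusted p = 0.0024, edgeR).

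Of 26 further known ATF4 targets, 21 were tested, 2 were higher (9.52%, against 13.6% of all genes) and 7 were lower (33.3%, against 12.4%), with a median log2 fold change of -0.19. Slc38a2, which encodes the neutral amino acid transporter SNAT2, was the largest rise among them, from 208 ± 21.5 to 419 ± 19.1 CPM (n = 4 each), or 1.04 on the log2 scale (SE 0.10, adjusted p = 1.3e-09, edgeR). The largest falls among the tested genes were of Aldh1l2, a mitochondrial folate enzyme (-1.30, SE 0.29, adjusted p = 0.0011), the stress cytokine Gdf15 (-1.15, SE 0.14, adjusted p = 8.6e-08), the glycine transporter Slc6a9 (-0.84, SE 0.29, adjusted p = 0.033) and the stress regulator Nupr1 (-0.76, SE 0.14, adjusted p = 8.1e-05), all by edgeR. Gdf15 was at 94.5, 93.7, 111 and 89.4 CPM in the controls and at 48.4, 45.4, 50.6 and 35.2 CPM after RANKL. Its groups were far apart. The call of Slc6a9 was lost without control replicate 2 (-0.69), RANKL replicate 2 (-0.70) or RANKL replicate 4 (-0.78), over a range of adjusted p from 0.0081 to 0.14. Ddit3, which encodes the ER stress factor CHOP and was named after its values were seen, fell by 0.49 on the log2 scale (SE 0.14, adjusted p = 0.012, edgeR). The call of Ddit3 was lost without control replicate 3 (-0.30), RANKL replicate 2 (-0.44) or RANKL replicate 4 (-0.44), over a range of adjusted p from 0.0018 to 0.078. Atf3, Vldlr, Fgf21, Cbs and Slc7a3 were below the filter on low counts and were not tested. Of these, Cbs, an enzyme of cysteine synthesis, had 77 counts in all control and 3 in all RANKL libraries (5.37 ± 2.37 and 0.433 ± 0.520 CPM), and the stress factor Atf3 had 79 and 9 counts (5.49 ± 1.36 and 1.32 ± 0.906 CPM). The CPM values of both did not overlap between groups, as for 11.5% of all genes tested on the lower side. RANKL replicate 1 held 0 counts of each, which allows up to 4.89 CPM. That limit is above control replicate 3 for Cbs (4.05 CPM) and Atf3 (4.31 CPM), so the separation lies within counting error.

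**Figure D4:**
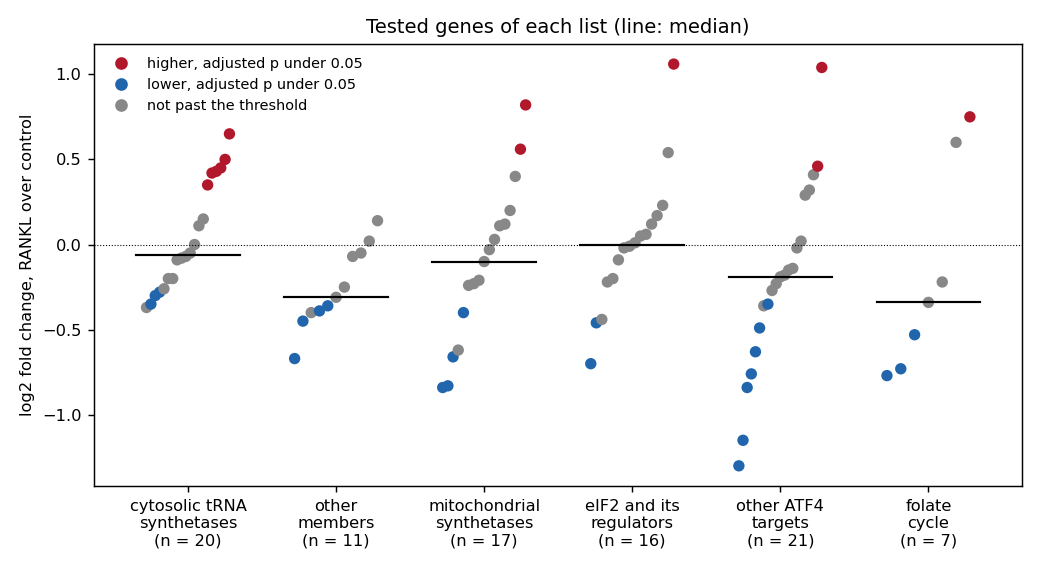
Log2 fold change of RANKL over control for the tested genes of each list, with 1 point per gene, sorted within a list, and the median as a line (edgeR). The synthetases spread to both sides of 0 around a median of -0.06, the other members lie mostly below 0, and Slc38a2 (1.04) is the highest of the other ATF4 targets.

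Of 17 mitochondrial tRNA synthetases, which are separate nuclear genes, 2 were higher (11.8%, against 13.6% of all genes) and 4 were lower (23.5%, against 12.4%), with a median of -0.10. Mars2 (-0.84), Nars2 (-0.83) and Yars2 (-0.66) were lower, and Wars2 (0.82) and Lars2 (0.56) were higher on the log2 scale. Their levels were low, between 7.39 CPM for Wars2 and 18.0 CPM for Lars2 as control means. Leaving out libraries lost the call of Mars2 (without RANKL replicate 4, -0.77), Wars2 (without control replicate 2, 0.71, or RANKL replicate 4, 0.72), Lars2 (without RANKL replicate 1, 0.53, 3, 0.49, or 4, 0.52) and Yars2 (without control replicate 1, -0.50, or RANKL replicate 1, -0.62, 2, -0.63, or 4, -0.61). With library size as a covariate Mars2 was at -0.44 and Nars2 at -0.49, and neither was called. In the DESeq2 Wald test none of these 5 passed the threshold, with adjusted p between 0.084 and 0.18, and over all alternative fits adjusted p ran from 0.0036 for Nars2 to 0.45 for Yars2.

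Of 11 folate genes around Shmt2 and Mthfd2, 7 were tested, 1 was higher (14.3%, against 13.6% of all genes) and 3 were lower (42.9%, against 12.4%), with a median of -0.34. Shmt1, the cytosolic counterpart of Shmt2, was at 193, 193, 150 and 194 CPM in the controls and at 284, 330, 271 and 334 CPM after RANKL. Every RANKL library was above every control library, and Shmt1 rose by 0.75 on the log2 scale (SE 0.11, adjusted p = 2.8e-06, edgeR). Slc25a32, the mitochondrial folate carrier (-0.73), and Mthfd1, the cytosolic trifunctional enzyme (-0.53), were among those lower. The log2 ratio of Shmt1 to Shmt2 was 1.27 ± 0.29 in control and 2.46 ± 0.30 in RANKL libraries (n = 4 each), a difference of 1.19 (SE 0.21, exact two-sided permutation p = 0.0286). It was 1 of 4 ratios compared, all chosen after the values were seen, and its adjusted p over the 4 was 0.114. The fourth, of Slc7a11 to Slc3a2, was -3.06 ± 0.43 in control and -3.07 ± 0.28 in RANKL libraries (n = 4 each, exact two-sided permutation p = 1.0).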

How the data were processed

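Members and gene lists were chosen with earlier results of these data known. Per the labels, total RNA of each library was prepared with the QuantSeq 3′ forward kit. The authors trimmed reads with BBDuk, removed abundant sequences with bowtie2, aligned to GRCm38 with STAR and counted Ensembl genes with featureCounts, stranded; the deposited values are raw counts per gene. Symbols and coordinates were taken from GENCODE release M21 on GRCm38, and promoters from RefSeq (GRCm38.p6).

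Groups followed the labels. The counts were fitted with edgeR 4.0.16 (TMM factors, filterByExpr, quasi-likelihood test, Benjamini-Hochberg over 9971 genes, threshold 0.05) in R 4.3.3. The SE is the log2 fold change divided by the square root of F, and the 95% interval comes from it. Alternatives were DESeq2 1.42.0 size factors, library totals alone, the DESeq2 Wald test, limma-voom (limma 3.58.1), no filter beyond 1 count, a floor of 10 counts per library, a replicate block, the log2 library total as a covariate, each library left out, and a threshold of 0.01; leaving out control replicate 4 and RANKL replicate 1 together was added after the totals were seen. Exact permutation tests used all 70 assignments. The steps were tested on simulated data. Values in every library are given for Atf4, Asns and each member past the threshold, and up to 5 genes past it with the largest change are named from each other list. No 2 libraries of a group agreed within counting noise (chi-square over degrees of freedom of 1.29 to 13.1). Values of a few list genes and 1 promoter stretch are not reported here.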

Additional observations from a re-analysis of the deposited data

Results flagged for a closer look

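Within 64 groups of 4 libraries, 2 for each member, 5 held a library whose distance to its nearest neighbour exceeded Dixon's 95% critical value as a share of the group's range, where chance gives about 1 in 20, or 3.2. Trib3 was at 68.7 CPM in RANKL replicate 4, with the next library at 43.8. Chac1 was at 25.8 CPM in control replicate 4 (next 11.5) and at 18.7 CPM in RANKL replicate 4 (next 10.3), on 15 and 34 counts. Vars was at 88.8 CPM in RANKL replicate 1, with the nearest library at 116. Wars was at 37.0 CPM in RANKL replicate 3, below a nearest value of 39.9.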

How the results depend on the processing

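Of the 13 called members, 6 kept their call under every alternative: Atf4 and Asns on the lower side, and Lars, Vars, Hars and Tars on the higher side. At an adjusted p of 0.01, 1636 of 2587 genes, 3 of the 7 lower members and 1 of the 3 lower synthetases remained called. With library size (log2) as a covariate the synthetase median was -0.006, Psat1, Shmt2, Kars, Aars and Sars lost their call, Dars gained one (-0.56), and signs turned for Chac1 (-0.33), Slc7a11 (-0.06), Slc7a5 (0.01), Iars (0.04) and Rars (-0.01), none of them called. Signs also turned for Chac1 (-0.01) and Slc7a11 (0.00) in the DESeq2 Wald test, where Aars and Kars lost their call, and for Slc7a11 (-0.03) and Yars (-0.04) without a filter, where Aars and Kars lost and Farsa gained a call (-0.29). Sars lost its call with library totals alone (-0.25). With libraries left out, members called lower numbered 3 to 9, synthetases called lower 0 to 5, and the log2 fold changes that turned ran from -0.22 to 0.35 for Chac1, -0.18 to 0.12 for Slc7a11, -0.15 to 0.01 for Slc3a2, -0.16 to 0.05 for Iars, -0.06 to 0.09 for Yars and -0.14 to 0.05 for Qars. The causes were not tested. The deviations of same-numbered libraries had correlations of -0.033 to 0.101 over 4 pairs, and 2 of 4 controls were closest to their own number. With so few pairs and some shallow libraries, these values cannot exclude that the numbers pair the libraries. With the replicate block Trib3 (-0.43) and Farsa (-0.26) gained a call, Aars (0.40) lost it and Chac1 turned to -0.19. The median of all genes stayed between -0.041 and 0.025 under every alternative. Depth limits Phgdh, Chac1, Slc7a11 and Psph most, which had 54, 239, 218 and 276 counts in all 8 libraries.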
